A study of Homo sapiens with 16 samples.

Results

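The EGF receptor family was described through 9 genes: the ligands AREG, EREG, HBEGF, TGFA and NRG1, the receptors EGFR, ERBB2 and ERBB3, and the receptor inhibitor ERRFI1. They were taken by gene symbol from the 30813 genes of the count table, and each symbol had 1 row. RNA sequencing of total RNA had been made from 16 libraries of a pair of human melanoma cell lines, A375 and 451Lu, made resistant to MAPK pathway inhibitors. The study asked how gene expression moved over time once the drug was taken away. DR A375 cells, the resistant A375 derivative, stood 6 h, 24 h or 48 h in DMSO without drug, against cells kept on dabrafenib at 0.5 µM with trametinib at 0.05 µM. 451Lu BR cells, the resistant 451Lu derivative, stood 24 h, 72 h or 120 h in DMSO, against cells kept on dabrafenib at 1 µM. Dabrafenib is an inhibitor of the BRAF kinase, and trametinib of the MEK kinases below it. All 8 groups had 2 libraries, and all came from resistant cells, so no drug-naive parental cells were compared. For 451Lu the labels disagree on the drug, with only dabrafenib in the notes on treatment, whose dose is used here, and resistance to trametinib as well in the source name. It is not stated whether libraries sharing a group were grown as separate cultures, so p-values measure the spread between these libraries, which may be technical. The 2 lines also differ in drug and in sampling times, and these cannot be told apart from the line itself.

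Ligands of this family are made as membrane-bound precursors, are cut free by ADAM proteases, and bind receptor tyrosine kinases that pair with each other. AREG, EREG, HBEGF and TGFA bind EGFR, HBEGF and EREG also bind ERBB4, and NRG1 binds ERBB3 and ERBB4. ERBB2 has no known ligand and acts as a partner, ERBB3 has little kinase activity of its own and couples to PI3 kinase, and ERRFI1 (also called MIG6) binds the kinase domain of EGFR and blocks it. In melanocytes and melanoma ERBB3 is the family's best known receptor, and signalling through EGFR or ERBB3 has been linked to tolerance of BRAF inhibitors.

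Library totals ran from 10863255 to 16691725 counts in A375 and from 9714190 to 16447548 in 451Lu, and levels are given as CPM, counts scaled to library size, with TMM factors over all 16 libraries. All 8 melanocyte lineage markers had a row, and their summed level was lower off drug in both lines. It was 975 to 1067 CPM in A375 at 48 h, against 5046 to 5167 CPM on drug, and 1014 to 1147 CPM in 451Lu at 120 h, against 11252 to 11835 CPM on drug. The on-drug sums were mostly DCT in A375 (mean 2964 CPM) and PMEL in 451Lu (mean 9259 CPM). All 8 means were lower at these last times, but by unlike amounts. SOX10 in A375 averaged 544 CPM, against 608 CPM on drug. S100B in 451Lu overlapped, at 60.4 and 81.1 CPM, against 79.1 and 77.6 CPM on drug. Summed levels of 3 leukocyte and 3 endothelial markers stayed at or under 2.82 CPM in every library, with no row for CD3E or CDH5. The 4 fibroblast markers, on drug mostly LUM, summed to 4.93 to 16.7 CPM in A375 off drug and 23.3 to 23.6 CPM on drug, and to 24.1 to 47.3 CPM in 451Lu off drug and 139 to 154 CPM on drug. In 451Lu LUM alone carried that lower sum, at 5.49 and 6.66 CPM at 120 h, against 153 and 138 CPM on drug. The other 3 rose there at 24 h, 72 h and 120 h, with DCN at 5.40 and 2.99 CPM at 120 h, against 0.0681 and 0.116 CPM on drug, COL1A1 at 9.95 and 5.79 CPM, against 0.136 and 0.464 CPM, and PDGFRA at 26.5 and 13.6 CPM, against 0.341 and 0.464 CPM. Of 4 keratinocyte and epithelial markers KRT5 and KRT14 had no row, EPCAM had at most 1 count, and the sum, nearly all CDH1, was at most 0.399 CPM in 451Lu off drug and 9.81 to 11.8 CPM on drug. Mitochondrial genes took 2.60% to 3.70% of counts in A375 off drug and 4.81% to 5.53% on drug, and 3.97% to 5.08% in 451Lu off drug and 5.51% to 6.11% on drug. The part of these shifts in the results below was not tested. In bulk RNA, fewer cells expressing a gene and less RNA per cell cannot be told apart.

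AREG and EREG, which code for amphiregulin and epiregulin, are neighbours on chromosome 4. Off drug AREG was the higher of them in A375 from 6 h. EREG was the higher in 451Lu from 72 h, at far lower levels, and AREG rose there too at 120 h. AREG (ENSG00000109321, GRCh38 chromosome 4, 74445134 to 74455009, plus strand) had 0.221 and 0.128 CPM in A375 on drug, 22.3 and 26.9 CPM at 6 h, 712 and 699.6 CPM at 24 h, and 1055 and 1026 CPM at 48 h. In 451Lu the same gene had 0.341 and 0.0581 CPM on drug, 0.0719 and 0.257 CPM at 24 h, 0 and 0.200 CPM at 72 h, and 4.37 and 1.84 CPM at 120 h. The A375 levels climbed at each time with no overlap between groups, while in 451Lu only the 120 h libraries stood above the rest. EREG (ENSG00000124882, chromosome 4, 74365143 to 74388751, plus strand) had at most 2 counts in any A375 library. The 2 A375 libraries on drug had 0 EREG counts, which allows up to 0.166 and 0.192 CPM. In 451Lu EREG had 0 and 0.0581 CPM on drug, 0.144 and 0 CPM at 24 h, 5.62 and 1.80 CPM at 72 h, and 24.4 and 12.7 CPM at 120 h. The 72 h and 120 h libraries were thus all above the earlier ones, and the groups at 72 h and 120 h did not overlap, although replicate 1 was higher than replicate 2 at both times. The genes lie 56.4 kb apart with no other gene of the table between them. EPGN, the ligand gene 49.8 kb before EREG, had 1 count in all 16 libraries together, and BTC, the ligand gene 290 kb past AREG on the other strand, was low in both lines.

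**Figure D1:**
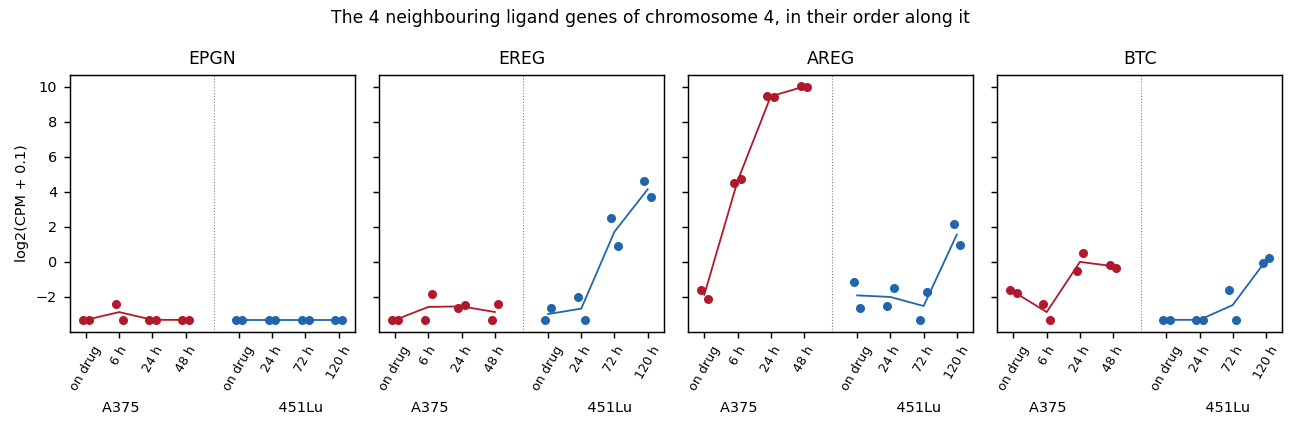
Levels of the neighbouring ligand genes EPGN, EREG, AREG and BTC, in their order along chromosome 4, as log2(CPM + 0.1) by group, with A375 in red and 451Lu in blue; points are libraries (replicate 1 on the left) and lines join group means of the log2 values. AREG passes 1000 CPM in A375 at 48 h and stays under 5 CPM in 451Lu, EREG reaches 24.4 CPM in 451Lu at 120 h and has at most 2 counts in any A375 library, and EPGN lies at or near 0 counts throughout.

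The 250 bases before the start of the neighbours AREG and EREG, and of ERRFI1, which had its large rise in the other line, are shown so that the 3 upstream windows can be read side by side; they come from RefSeq on GRCh38.p14, 5′ to 3′ on the gene's own strand, with motif matches in capitals. The AREG window is chr4:74444886-74445135 (plus strand), the EREG window chr4:74364895-74365144 (plus strand) and the ERRFI1 window chr1:8026310-8026559 (minus strand).
AREG: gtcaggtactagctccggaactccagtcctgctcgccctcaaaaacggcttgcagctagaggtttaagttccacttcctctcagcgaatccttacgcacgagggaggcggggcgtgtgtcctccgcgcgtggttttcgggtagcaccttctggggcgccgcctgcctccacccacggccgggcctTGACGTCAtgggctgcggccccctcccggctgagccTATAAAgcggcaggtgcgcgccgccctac
EREG: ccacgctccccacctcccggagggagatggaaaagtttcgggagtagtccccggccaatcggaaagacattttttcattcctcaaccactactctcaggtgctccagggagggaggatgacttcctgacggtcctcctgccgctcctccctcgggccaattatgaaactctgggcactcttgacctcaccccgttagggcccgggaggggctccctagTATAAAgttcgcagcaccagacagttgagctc
ERRFI1: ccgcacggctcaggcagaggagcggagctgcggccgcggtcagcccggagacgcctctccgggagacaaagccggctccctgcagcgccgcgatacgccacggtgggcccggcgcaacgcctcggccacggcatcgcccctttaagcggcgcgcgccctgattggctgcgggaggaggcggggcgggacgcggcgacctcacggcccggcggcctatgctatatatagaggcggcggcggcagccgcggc

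The motifs were looked for on both strands of these windows as exact letters: the FOS and JUN (AP-1) site TGANTCA, the cyclic AMP element TGACGTCA, the MITF-type E-box TCACGTG, the ETS site CCGGAAGT and the TATA box TATAAA. AREG held TGACGTCA from 65 to 58 bases before the start and TATAAA from 29 to 24 bases before it. EREG held TATAAA from 32 to 27 bases before its start, and the ERRFI1 window held none of the 5. Among 35116 RefSeq promoter windows of the same length, 1.65% held TGACGTCA, 10.7% TATAAA, 6.57% TGANTCA, 3.31% TCACGTG and 3.42% CCGGAAGT. RefSeq windows were read for 7 of the 9 genes, ERBB3 and NRG1 being the others. Chromosome 8, which holds NRG1, was left out when windows were picked, so a window for NRG1 was not looked for. Of the remaining windows, that of ERBB2 held TGANTCA and 2 copies of CCGGAAGT, a second start of EGFR held 2 copies each of TGANTCA and TATAAA, and those of TGFA, HBEGF and the first EGFR start held none. These are matches of letters and say nothing of a factor's binding.

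Within 6 h off drug AREG, HBEGF and ERRFI1 rose in A375 while ERBB2 and ERBB3 fell, and by 48 h TGFA had risen and EGFR had fallen. Adjusted p-values throughout are from edgeR's quasi-likelihood test, adjusted by Benjamini-Hochberg over all genes tested, and log2 fold changes are given ± SE, computed as the fold change over the square root of the test's F value. Folds come from a fit of each line's own 8 libraries, so they can differ slightly from ratios of the printed CPM. EREG and NRG1 did not pass the low-count filter in A375 and were not tested there. Of the 7 members tested, 3 rose and 2 fell at 6 h against on drug, beside 35.1% of 14449 genes that rose and 38.1% that fell (73.3% called). At 24 h 4 rose and 2 fell (all genes, 36.2% and 36.3%, 72.6% called), and at 48 h 5 rose and 2 fell (36.6% and 36.0%, again 72.6% called). With over 7 in 10 genes called, a call is the rule in these data, and the size of a change says more than its p-value.

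Among the ligands in A375, AREG rose by a log2 fold change of 6.999 ± 0.22 at 6 h (adjusted p = 7.90e-25), 11.85 ± 0.12 at 24 h (5.19e-40) and 12.41 ± 0.11 at 48 h (5.09e-41). The 48 h value is 5435-fold, against 4 and 2 counts on drug. The 24 h level was above the 6 h level (4.85, adjusted p = 2.61e-35), and the 48 h level above the 24 h one by a smaller step (0.56, adjusted p = 2.09e-12). HBEGF (ENSG00000113070, chromosome 5, 140332843 to 140346631, minus strand), the heparin-binding ligand, had 9.01 and 9.04 CPM on drug, 52.8 and 43.9 CPM at 6 h, 45.2 and 45.4 CPM at 24 h, and 40.7 and 37.2 CPM at 48 h. Its level was high in all 6 libraries off drug and low in both on drug. It rose 5.23-fold within 6 h (log2 fold change 2.39 ± 0.10, adjusted p = 2.30e-21) and stood at 2.29 ± 0.10 at 24 h and 2.08 ± 0.10 at 48 h. A fall between 24 h and 48 h (-0.22, adjusted p = 0.0349) was lost under DESeq2, under the fit of both lines together and without either 24 h library or 48 h replicate 2, with adjusted p from 0.0857 to 0.201 in these fits. TGFA (ENSG00000163235, chromosome 2, 70447280 to 70554193, minus strand), which codes for transforming growth factor alpha, had 52.5 and 49.0 CPM on drug, 53.2 and 52.4 CPM at 6 h, 96.3 and 93.2 CPM at 24 h, and 127 CPM in both libraries at 48 h. The 6 h and on-drug libraries overlapped, and the later groups lay above them. TGFA did not pass the test at 6 h (0.02 ± 0.06, adjusted p = 0.817) and rose later, by 0.87 ± 0.06 at 24 h (1.22e-15) and 1.28 ± 0.06 at 48 h (1.12e-20). NRG1, the neuregulin ligand of ERBB3, had 1 count in all 8 A375 libraries together.

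**Figure D2:**
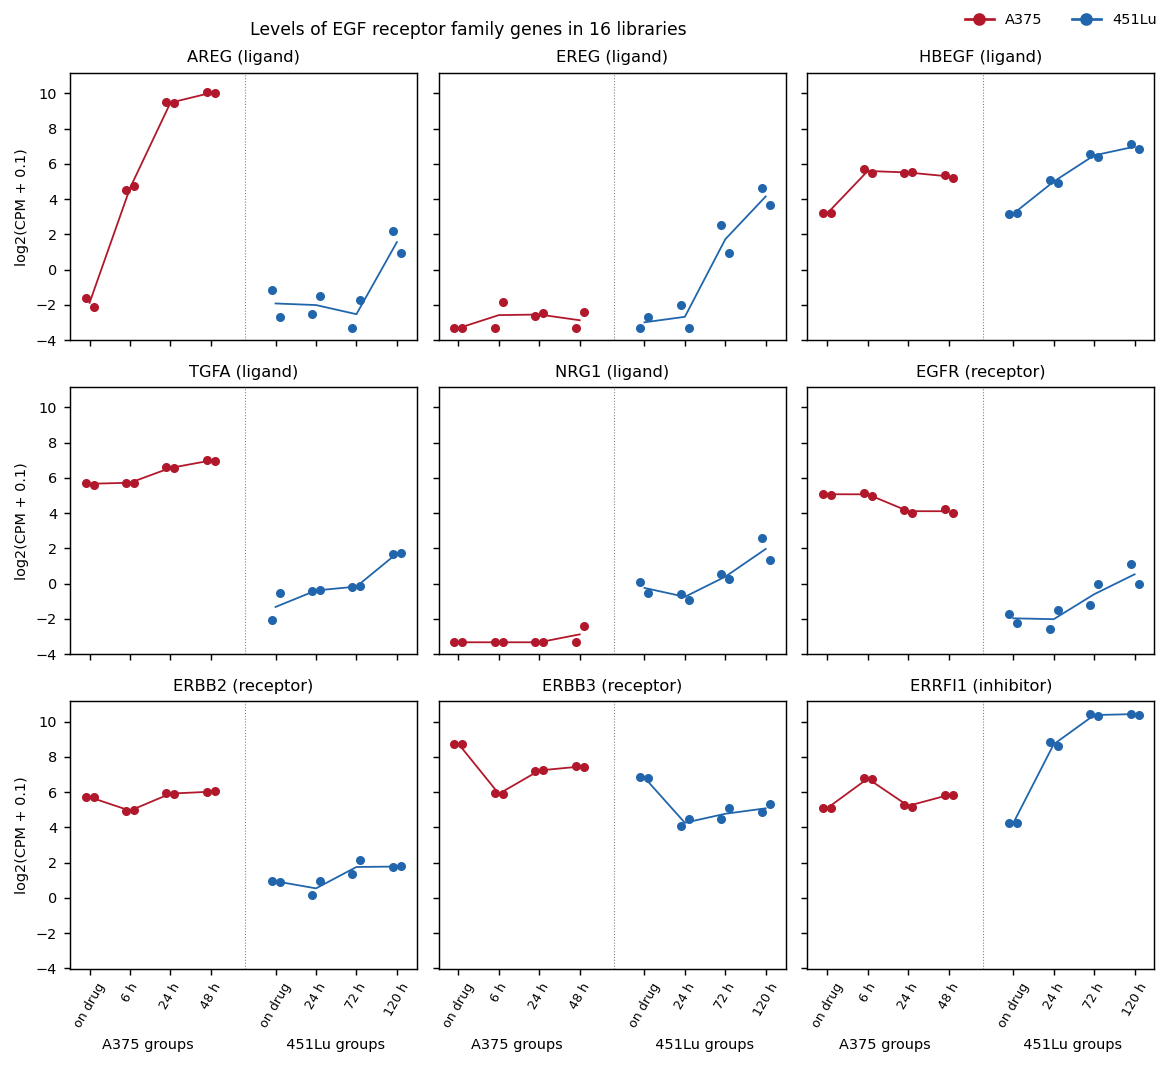
Levels of the 9 genes as log2(CPM + 0.1) by group, with A375 in red and 451Lu in blue; points are libraries (replicate 1 on the left) and lines join group means of the log2 values. HBEGF starts near 9 CPM on drug in both lines, ERBB3 is at its highest on drug in both, and ERRFI1 reaches 1396 CPM in 451Lu, against at most 109 CPM in A375.

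The receptors moved differently from one another in A375. ERBB3 (ENSG00000065361, chromosome 12, 56079857 to 56103505, plus strand) had 427 and 426 CPM on drug, 60.8 and 58.3 CPM at 6 h, 148 and 151 CPM at 24 h, and 175 and 173 CPM at 48 h. Every group stood apart from the others, with the lowest level at 6 h. ERBB3 fell 7.35-fold at 6 h (log2 fold change -2.88 ± 0.05, adjusted p = 5.33e-32), lay above that level again at 24 h (1.33 against 6 h, adjusted p = 4.27e-21), and was still below the on-drug level at 48 h (-1.33 ± 0.05, adjusted p = 8.19e-24). EGFR (ENSG00000146648, chromosome 7, 55019021 to 55256620, plus strand) had 34.5 and 32.7 CPM on drug, 35.9 and 31.2 CPM at 6 h, 18.2 and 16.2 CPM at 24 h, and 18.5 and 15.96 CPM at 48 h. The first 2 groups overlapped, as did the last 2, with a step down between them. It did not pass the test at 6 h (-0.04 ± 0.08, adjusted p = 0.684) and fell by 0.99 on the log2 scale at 24 h (SE 0.09, adjusted p = 5.51e-12) and by 1.00 at 48 h (SE 0.09, adjusted p = 1.69e-11). EGFR was thus lower at the times when its ligands AREG, HBEGF and TGFA were all higher.

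ERBB2 (ENSG00000141736, chromosome 17, 39687914 to 39730426, plus strand) had 52.5 and 52.2 CPM in A375 on drug, 29.8 and 31.5 CPM at 6 h, 61.7 and 58.5 CPM at 24 h, and 63.8 and 65.7 CPM at 48 h. Its 6 h libraries were the low ones. ERBB2 fell at 6 h (-0.81 ± 0.07, adjusted p = 1.71e-12) and was slightly above the on-drug level at 48 h (0.27 ± 0.06, adjusted p = 1.55e-04). The call at 24 h (0.17 ± 0.06, adjusted p = 0.0124) was lost under DESeq2, with either on-drug library left out, and without 24 h replicate 1, with adjusted p from 0.0540 to 0.122 in these 4 fits. ERBB2 overlaps MIEN1 (132 to 605 counts per library) and PGAP3 (13 to 132 counts) on the opposite strand, and since the strand setting of the counting is not given, reads shared between them cannot be told apart. ERRFI1 (ENSG00000116285, chromosome 1, 8004404 to 8026308, minus strand), the inhibitor, had 33.6 and 34.2 CPM on drug, 109 and 108 CPM at 6 h, 38.1 and 36.0 CPM at 24 h, and 57.5 and 56.2 CPM at 48 h. The 6 h libraries were highest and the 24 h libraries were nearly back at the on-drug level. ERRFI1 rose 3.12-fold at 6 h (log2 fold change 1.64 ± 0.06, adjusted p = 6.95e-23), did not pass the test at 24 h (0.10 ± 0.07, adjusted p = 0.193), and rose by 0.71 ± 0.07 at 48 h (1.02e-11). Between consecutive times in A375, 4 members rose and 2 fell at 24 h against 6 h, beside 35.5% and 34.2% of all genes (69.8% called), and 4 rose and 1 fell at 48 h against 24 h, beside 14.2% and 15.7% (29.9% called).

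In 451Lu cells off drug HBEGF and ERRFI1 rose and ERBB3 fell by 24 h, and the other ligands and EGFR followed later. All 9 members were tested in this line. At 24 h 2 rose and 1 fell, beside 29.2% of 13851 genes that rose and 24.9% that fell (54.1% called). At 72 h 5 rose and 1 fell (all genes, 34.2% and 33.4%, 67.7% called), and at 120 h 8 rose and 1 fell (37.3% and 36.6%, 73.8% called). The 5 calls at 72 h were 3 under DESeq2 and 3 to 5 with 1 library left out.

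Among the ligands in 451Lu, HBEGF had 8.65 and 9.12 CPM on drug, 33.4 and 30.1 CPM at 24 h, 93.4 and 84.9 CPM at 72 h, and 139 and 113 CPM at 120 h. Each group lay above the one before it. HBEGF rose by a log2 fold change of 1.87 ± 0.13 at 24 h (adjusted p = 2.93e-09), 3.33 ± 0.12 at 72 h (3.31e-13) and 3.81 ± 0.11 at 120 h (2.41e-14), which is 14.01-fold. EREG had 68 counts at 72 h and 1 on drug over both libraries, a ratio of 115 with a counting interval of 19.9 to 4597, and 416 counts at 120 h, a ratio of 603 with an interval of 108 to 23869. Its fitted log2 fold change was 6.45 ± 1.06 at 72 h (adjusted p = 5.22e-05) and 8.80 ± 0.70 at 120 h (7.28e-09). EREG was also higher at 120 h than at 72 h (2.35, adjusted p = 1.06e-04). These intervals cover counting error only, and the fitted size rests on few on-drug counts. At 72 h the EREG value was 5.72 without on-drug replicate 1, 8.39 without on-drug replicate 2, 5.45 without 72 h replicate 1 and 7.07 without 72 h replicate 2. At 120 h it was 8.07 without on-drug replicate 1, 10.74 without on-drug replicate 2 and 8.21 without 120 h replicate 1.

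AREG in 451Lu did not pass the test at 24 h or 72 h and rose at 120 h, with 51 and 19 counts against 5 and 1 on drug (3.98 ± 0.61, adjusted p = 2.04e-05). That value was 5.50 without on-drug replicate 1, 3.15 without on-drug replicate 2 and 3.16 without 120 h replicate 1. TGFA had 0.136 and 0.581 CPM on drug, 0.647 and 0.686 CPM at 24 h, 0.787 and 0.799 CPM at 72 h, and 3.09 and 3.28 CPM at 120 h. The 120 h libraries stood above the rest. TGFA rose at 120 h (3.04 ± 0.41, adjusted p = 4.26e-06), by 2.41 or 4.42 when on-drug replicate 1 or 2 was left out, while its values at 24 h (0.84, adjusted p = 0.219) and 72 h (1.06, adjusted p = 0.112) passed only when on-drug replicate 2 was left out (2.23, adjusted p = 0.0352, and 2.45, adjusted p = 0.0165). NRG1 had 0.954 and 0.581 CPM on drug, 0.575 and 0.429 CPM at 24 h, 1.35 and 1.10 CPM at 72 h, and 6.00 and 2.41 CPM at 120 h. Both 120 h libraries were above all others, with replicate 1 well over replicate 2. NRG1 rose at 120 h (2.47 ± 0.41, adjusted p = 4.67e-05), by 1.61 without 120 h replicate 1, and did not pass the test at 24 h or 72 h.

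ERBB3 in 451Lu had 114 and 112 CPM on drug, 16.6 and 21.8 CPM at 24 h, 21.7 and 34.0 CPM at 72 h, and 28.6 and 39.6 CPM at 120 h. All 6 libraries off drug lay below both on drug, and the 3 off-drug groups overlapped from one time to the next. ERBB3 fell 5.80-fold at 24 h (log2 fold change -2.54 ± 0.15, adjusted p = 6.86e-10) and stayed lower at 72 h (-2.005 ± 0.15, adjusted p = 6.18e-09) and 120 h (-1.75 ± 0.15, adjusted p = 1.30e-08). EGFR had 3 and 2 counts on drug, 1 and 3 at 24 h, 3 and 9 at 72 h, and 24 and 9 at 120 h, so its highest level was 2.06 CPM. It rose at 120 h (3.15 ± 0.65, adjusted p = 3.68e-04), by 2.34 without 120 h replicate 1. The call at 72 h (1.95 ± 0.82, adjusted p = 0.0461) was lost under DESeq2 and without any 1 of the on-drug or 24 h libraries or 72 h replicate 2, the last of which gave 1.03 (adjusted p = 0.489). ERBB2 had 14 to 43 counts per library and 1.01 to 4.29 CPM. Its calls at 72 h (0.91 ± 0.31, adjusted p = 0.0150) and 120 h (0.85 ± 0.30, adjusted p = 0.0176) were both lost under DESeq2 and without either on-drug library. The 72 h call was also lost without 72 h replicate 2 (0.42, adjusted p = 0.376), and the 120 h call without either 120 h library (adjusted p = 0.0541 and 0.0643). ERRFI1 had 18.8 CPM in both libraries on drug, 452 and 387 CPM at 24 h, 1385 and 1256 CPM at 72 h, and 1396 and 1346 CPM at 120 h. The groups were far apart up to 72 h and overlapped between 72 h and 120 h. ERRFI1 rose 22.8-fold at 24 h (4.51 ± 0.09, adjusted p = 1.26e-15), 70.5-fold at 72 h (6.14 ± 0.09, adjusted p = 2.97e-17) and 72.2-fold at 120 h (6.17 ± 0.09, adjusted p = 1.87e-17).

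Between consecutive times in 451Lu, 5 members rose and none fell at 72 h against 24 h (all genes, 25.9% and 25.5%, 51.4% called), and 5 rose and none fell at 120 h against 72 h (16.6% and 16.1%, 32.7% called). The first 5 were HBEGF, EREG, ERBB2, ERBB3 and ERRFI1, and the second 5 were the ligands AREG, EREG, HBEGF, TGFA and NRG1. NRG1 at 72 h against 24 h (1.22, adjusted p = 0.121) passed without 120 h replicate 2 (adjusted p = 0.0480). The first count was 3 to 6 with 1 library left out, since the calls for ERBB2 (1.29, adjusted p = 0.00469) and ERBB3 (0.53, adjusted p = 0.0250) were each lost without 24 h replicate 1 (adjusted p = 0.0759 and 0.225) or 72 h replicate 2 (0.132 and 0.541), and that for ERBB3 under DESeq2 as well (0.164). EREG at 72 h against 24 h (68 counts against 2, ratio 46.0, counting interval 12.2 to 387) had a fitted log2 value of 5.34, and 4.33 to 8.45 with 1 library left out: 8.45 and 4.53 without 24 h replicate 1 or 2, 4.33 and 5.98 without 72 h replicate 1 or 2. AREG had 70 counts at 120 h and 2 at 72 h, a ratio of 30.1 with a counting interval of 8.02 to 253. Its fitted log2 value of 4.75 was 3.90 without 72 h replicate 1, 8.28 without 72 h replicate 2 and 3.97 without 120 h replicate 1. For EREG the value was 3.36 and 1.70 without 72 h replicate 1 or 2. The call for NRG1 (1.79, adjusted p = 0.00420) was lost without 72 h replicate 2 (1.62, adjusted p = 0.0513) or 120 h replicate 1 (0.957, adjusted p = 0.149). Neither EGFR, ERBB2, ERBB3 nor ERRFI1 (0.04, adjusted p = 0.740) passed the test at 120 h against 72 h, although EGFR passed without 120 h replicate 2 (1.65, adjusted p = 0.0376) and ERBB3 without 72 h replicate 2 (0.61, adjusted p = 0.0312) or 120 h replicate 1 (0.47, adjusted p = 0.0371).

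**Figure D3:**
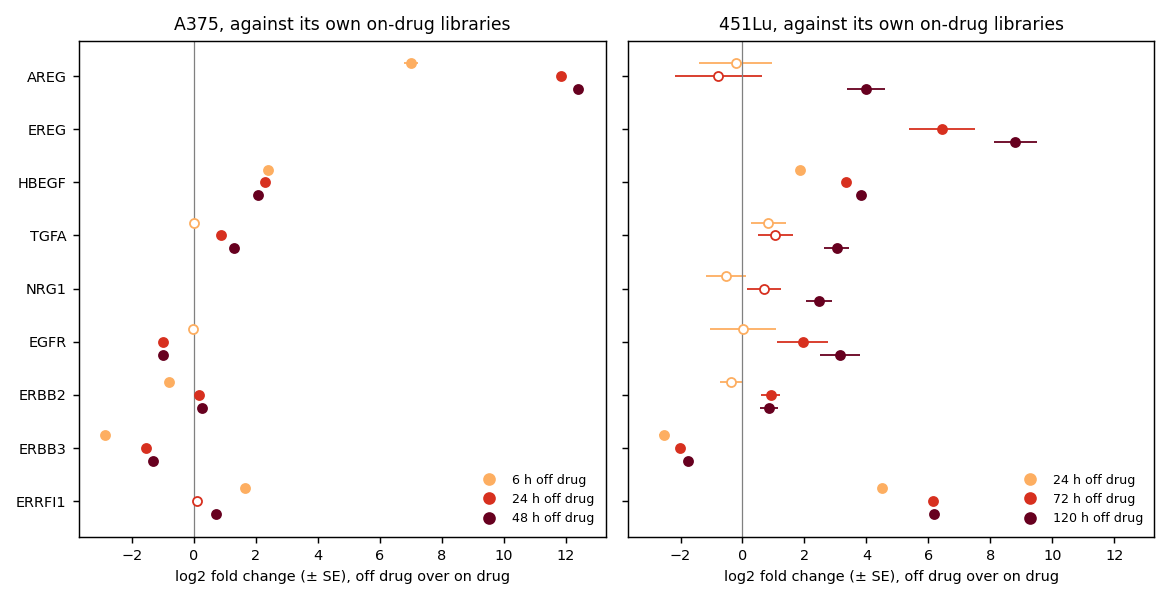
Log2 fold change of each gene off drug against on drug at each time in A375 and 451Lu; bars are ± SE from edgeR, filled symbols have an adjusted p under 0.05 and open symbols do not. AREG reaches 12.41 in A375 at 48 h, ERRFI1 6.17 in 451Lu at 120 h, and ERBB3 is below 0 at every time in both lines; EREG and NRG1 were not tested in A375, and EREG in 451Lu at 24 h had at most 3 counts in both groups and is not drawn.

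Summed ligand messages were higher, and summed receptor messages lower, in every library off drug than in the on-drug libraries of the same line. Levels were divided by exon length (CPM per kb of the merged exons in GENCODE 29) to add genes up, and the 5 ligands were set against EGFR, ERBB2 and ERBB3. The summed ligands over the summed receptors gave ratios of 0.249 and 0.236 in the 2 A375 libraries on drug, 3.35 and 3.45 at 6 h, 19.6 and 19.4 at 24 h, and 25.1 and 24.7 at 48 h. In 451Lu the same ratio was 0.250 and 0.257 on drug, 5.84 and 3.96 at 24 h, 12.1 and 6.79 at 72 h, and 14.9 and 8.70 at 120 h. Within these sums, receptor messages on drug thus exceeded ligand messages in both lines, at nearly the same ratio. The receptor sum was mostly ERBB3, whose ligand among the 5 is NRG1, so the ratio does not match ligands to their own receptor. Against EGFR alone, ligand messages were the higher on drug too. TGFA had 10.6 and 9.88 CPM per kb in A375, against 2.75 and 2.61 for EGFR. HBEGF had 2.87 and 3.02 in 451Lu, against 0.0163 and 0.00927 for EGFR (3 and 2 counts). Off drug the summed ligand messages exceeded the summed receptor messages in every library. The near match between lines was seen for these 5 ligands only, since other ligands of the family are left out. Of those, NRG3 averaged 19.5 CPM in 451Lu on drug and 5.47 CPM in A375 on drug. In 451Lu replicate 1 had the higher ratio at every time off drug.

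The sums rested on few genes. In A375 ligands summed to 679 and 660.2 CPM per kb at 48 h, against 13.7 and 12.95 on drug, and receptors to 27.0 and 26.8, against 55.1 and 54.8 on drug. In 451Lu ligands summed to 54.2 and 41.6 CPM per kb at 120 h, against 3.18 and 3.23 on drug, and receptors to 3.64 and 4.78, against 12.8 and 12.6 on drug. TGFA made up 77.2% and 76.3% of the A375 ligand sum on drug, HBEGF led at 6 h in replicate 1 with 41.9% and AREG in replicate 2 with 39.3%, and AREG led with over 9 parts in 10 at 24 h and 48 h. HBEGF led the summed ligands in every 451Lu library, with 85.1% to 97.8% of the sum. It was not the highest ligand of the family there on drug. NRG3, which is outside the sum, averaged 19.5 CPM over 5072 exon bases, against 8.88 CPM over 3018 exon bases for HBEGF. ERBB3 led the receptor sum in every library of both lines, at 53.7% to 98.5%. These are ratios of message levels and not of protein.

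**Figure D4:**
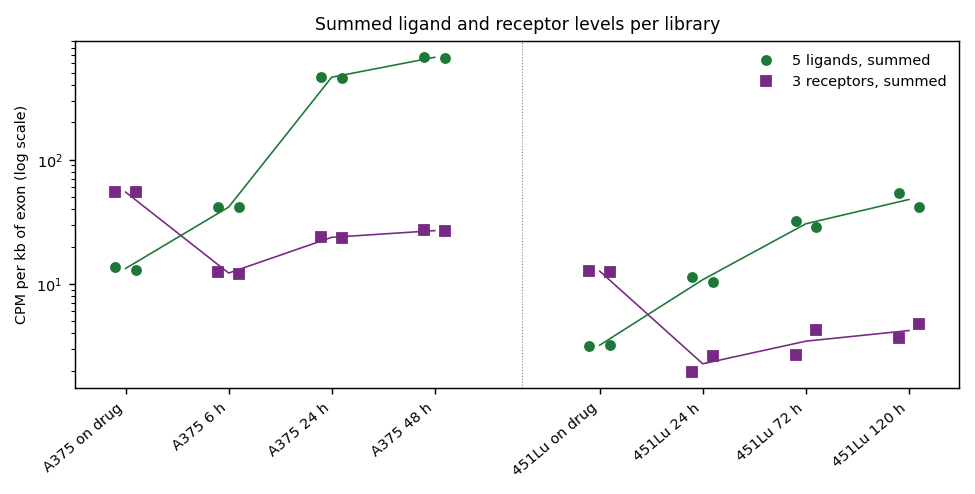
Summed level of the 5 ligands (green circles) and of the 3 receptors (purple squares) in each library, in CPM per kb of exon on a log axis, by group; points are libraries and lines join group means. The receptor sum, mostly ERBB3, lies above the ligand sum on drug in both lines and below it in every off-drug group. Ligands stand at 679 and 660.2 CPM per kb in A375 at 48 h. In 451Lu at 120 h they stand at 54.2 and 41.6 CPM per kb.

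The lines differed in several members while both were on drug, in a fit of all 16 libraries, with fold changes given as A375 over 451Lu. Of the 9 members, 5 were higher in A375 and 1 was lower, beside 37.9% and 39.3% of 15481 genes (77.2% called). EGFR had 34.5 and 32.7 CPM in A375 and 0.204 and 0.116 CPM in 451Lu, a 202-fold difference (log2 fold change 7.66 ± 0.26, adjusted p = 2.36e-19) that rests on 5 counts in 451Lu. TGFA was 132-fold higher in A375 (7.04 ± 0.17, adjusted p = 7.51e-23), by 8.43 or 6.42 on the log2 scale with 1 of the 451Lu libraries on drug left out. ERBB2 was 28.6-fold higher (4.84 ± 0.13, adjusted p = 2.62e-21), ERBB3 3.78-fold (1.92 ± 0.09, adjusted p = 2.66e-16) and ERRFI1 1.80-fold (0.85 ± 0.09, adjusted p = 2.22e-09). NRG1 had 0 counts in A375 and 24 in 451Lu over both libraries, at least 8.45-fold lower in A375 against a floor of 3 counts per group (adjusted p = 2.08e-04). HBEGF did not pass the test (0.02 ± 0.15, adjusted p = 0.917), nor did AREG at 6 counts in each line (-0.08, adjusted p = 0.952), and EREG was at 0 counts in A375 and 1 in 451Lu.

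At 24 h off drug, the one time both lines share, 6 members were higher in A375 and 2 were lower, beside 40.5% and 38.3% of all genes (78.8% called). AREG had 712 and 699.6 CPM in A375 and 0.0719 and 0.257 CPM in 451Lu (log2 fold change 12.05 ± 0.19, adjusted p = 1.26e-26). ERRFI1 had 38.1 and 36.0 CPM in A375 and 452 and 387 CPM in 451Lu, 11.3-fold lower in A375 (-3.50 ± 0.07, adjusted p = 3.96e-24). The AREG value was 11.39 or 13.09 with 1 of the 451Lu 24 h libraries left out, and the EGFR value (6.70, adjusted p = 5.18e-16) was 6.04 or 7.75. HBEGF was slightly higher in A375 (0.51 ± 0.10, adjusted p = 5.05e-05), and TGFA (7.14), ERBB2 (5.45) and ERBB3 (2.97) were higher there as well. NRG1 had 0 counts in A375 and 13 in 451Lu, at least 4.88-fold lower in A375 (adjusted p = 0.00282).

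The 24 h change itself, off drug against on drug, was then compared between lines as a difference of log2 fold changes, A375 minus 451Lu. Of the 9 members 3 had a higher and 1 a lower change in A375, beside 27.4% and 22.0% of all genes (49.4% called). The change of AREG was higher in A375 by 12.13 ± 1.63 (adjusted p = 7.57e-07), and by 10.59 to 13.14 with 1 library left out: 10.59 and 12.96 without 1 of the 451Lu on-drug libraries, 11.43 and 13.14 without 1 of the 451Lu 24 h libraries. The change of ERRFI1 was lower in A375 by a difference of -4.35 ± 0.11 (adjusted p = 1.56e-20). ERBB3 fell in both lines, by less in A375 at this time (difference 1.05 ± 0.15, adjusted p = 2.60e-06). HBEGF rose in both, by slightly more in A375 (0.49 ± 0.18, adjusted p = 0.0283), a call lost without either A375 on-drug library, A375 24 h replicate 1, 451Lu on-drug replicate 2 or 451Lu 24 h replicate 2 (adjusted p from 0.0524 to 0.108 in these 5 fits). TGFA (0.09, adjusted p = 0.958), EGFR (-0.95, adjusted p = 0.510) and ERBB2 (0.61, adjusted p = 0.107) did not pass, ERBB2 doing so without 451Lu 24 h replicate 2 (1.03, adjusted p = 0.0298), and no fold was given for EREG or NRG1. The last times of the lines differ, at 48 h and 120 h, and were not tested against each other.

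Of 32 other genes of the same signalling system, those called in A375 were split between the directions, and those called in 451Lu were mostly higher. In A375 28 were tested, with 12 higher and 8 lower at 6 h, 11 and 10 at 24 h, and 12 and 9 at 48 h, where the median log2 fold change was 0.04 beside 0.00 for all genes. All genes had 35.1% higher and 38.1% lower at 6 h, 36.2% and 36.3% at 24 h, and 36.6% and 36.0% at 48 h, so these counts lie near the background. In 451Lu 25 were tested, with 17 higher and 4 lower at 24 h (median 0.41, all genes 0.03), 17 and 4 at 72 h, and 18 and 5 at 120 h (median 0.64, all genes 0.00), beside 29.2% and 24.9% of all genes at 24 h, 34.2% and 33.4% at 72 h, and 37.3% and 36.6% at 120 h. Between lines, the 24 h changes of 16 of the 28 genes tested differed, 3 of them higher and 13 lower in A375, beside 49.4% of all genes called (27.4% higher and 22.0% lower).

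At 48 h in A375 the largest called changes of the list were in ERBB4, the remaining receptor (-1.96 ± 0.22, adjusted p = 1.60e-09), BTC, the ligand betacellulin (1.76 ± 0.63, adjusted p = 0.0128), LRIG1, a membrane inhibitor of the receptors (-1.55 ± 0.13, adjusted p = 4.36e-13), and CBL, a ubiquitin ligase that marks EGFR for breakdown (1.42 ± 0.06, adjusted p = 1.77e-21). The BTC change rests on few counts, 17 at 48 h and 7 on drug, each over both libraries. ERBB4 averaged 6.34, 4.68, 3.16 and 1.66 CPM over the 4 A375 groups in order of time. It had at most 2 counts in any 451Lu group. At 120 h in 451Lu they were in RHBDF1 and RHBDF2, the inactive rhomboids that bring ADAM17 to the cell surface (2.77 ± 0.09, adjusted p = 6.72e-14, and 2.35 ± 0.07, adjusted p = 2.33e-14), SOCS5, which lowers EGFR levels (2.16 ± 0.08, adjusted p = 2.27e-13), and the adaptor SHC1 (2.08 ± 0.06, adjusted p = 9.55e-15). All 4 tested genes of ligand release rose in 451Lu at 120 h, where 73.8% of all genes were called (37.3% higher), and in A375 at 48 h 4 of 5 rose and 1 fell, where 72.6% were called (36.6% higher). BTC had 21 counts in 451Lu at 120 h and 0 on drug, at least 10.1-fold higher.

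The largest called differences between lines in the 24 h change were in NRG3, a neuregulin ligand (2.95 ± 0.22, adjusted p = 3.26e-11), EGF (-1.55 ± 0.35, adjusted p = 6.20e-04), SOCS5 (-1.49 ± 0.10, adjusted p = 3.15e-12) and NRG2 (-1.40 ± 0.24, adjusted p = 2.49e-05). In 451Lu NRG3 averaged 2.44 CPM at 24 h, against 19.5 CPM on drug. The exchange factors SOS1 and SOS2, which load RAS with GTP, and the inhibitor SOCS4 also had a lower change in A375, at -0.78 (adjusted p = 1.34e-07), -0.99 (adjusted p = 6.62e-07) and -0.91 (adjusted p = 1.31e-07); these 3 were chosen after their values were seen.

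**Figure D5:**
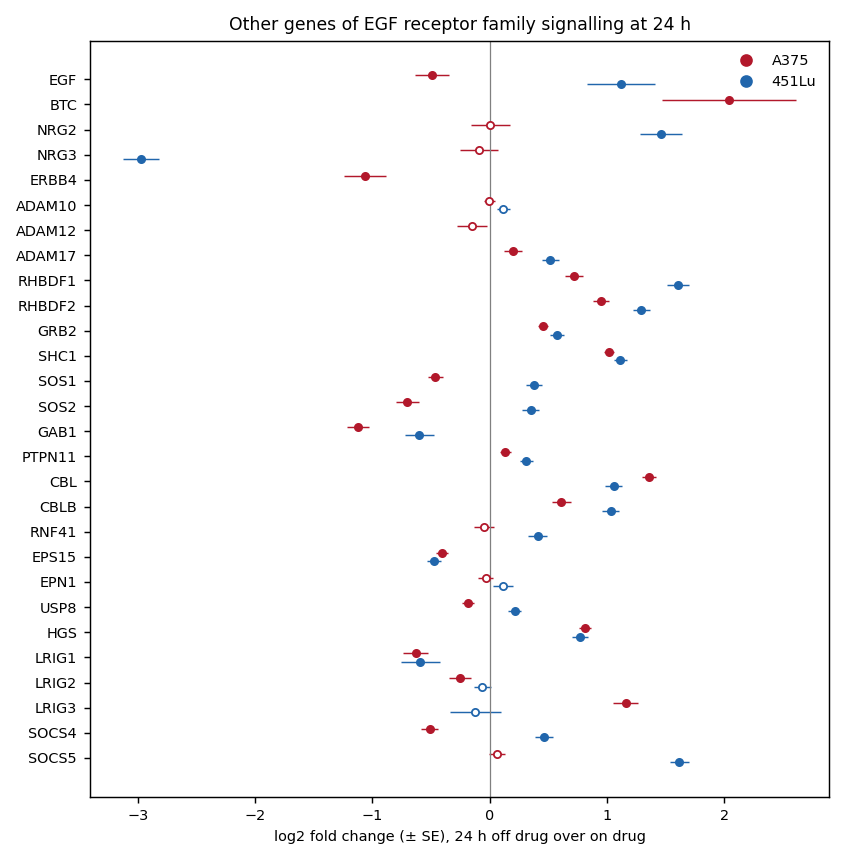
Log2 fold change at 24 h off drug against on drug for the tested genes of the signalling list, with A375 and 451Lu marked by colour; bars are ± SE from edgeR, filled symbols have an adjusted p under 0.05 and open symbols do not. NRG3 is far below 0 in 451Lu and near 0 in A375, and SOCS5 is 1.62 in 451Lu and 0.06 in A375.

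Genes whose group means were most like those of AREG, EGFR and ERBB3 were ranked by Pearson's r of mean log2 CPM over the 8 groups, among 13440 genes at 1 CPM or more on average. The points share the library depth and the split into lines, and r is given as a description. For AREG these were GTF2E2 (r = 0.993), PTPRN (0.988) and IGSF9B (0.984). GTF2E2 codes for a subunit of the general transcription factor TFIIE and IGSF9B for an adhesion protein. PTPRN codes for a secretory granule protein of the receptor-type phosphatase family. GTF2E2 had a narrow range, averaging 34.5, 58.0, 88.8 and 97.4 CPM over the A375 groups in order of time and 31.7 to 42.0 CPM in 451Lu. For EGFR they were ARAP2 (0.998), FAM78B (0.995) and SLCO3A1 (0.995), and for ERBB3 C9orf85 (0.989), HYKK (0.980) and TMEM229B (0.971). With a prior count of 0.5 in place of 2, ARAP2 still led for EGFR (0.997) and GTF2E2 for AREG (0.988), while IGF1R (0.982) took the place of PTPRN.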

How the data were processed

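Total RNA of 16 libraries, in 8 groups of 2, was sequenced. Reads were aligned with TopHat2 2.1.0 and Bowtie 1.0.0 to GRCh38, per the submitters' processing notes. The values deposited by the authors are raw read counts per Ensembl gene in 1 table. Which read counter, strand setting and annotation release were used is not given in the sources used here. Totals per library ran from 9714190 to 16691725 counts, which sets the precision of low genes.

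Genes passing filterByExpr (minimum count 10, minimum total 15) were scaled by TMM and tested with edgeR 4.0.16 (limma 3.58.1, R 4.3.3). The quasi-likelihood test used each line's 8 libraries, or all 16 for contrasts between lines, with Benjamini-Hochberg adjustment over all genes tested and a threshold of 0.05. The tests were checked on simulated data, with changes placed only in genes above a set mean level. That check does not cover genes with few counts. Alternatives were DESeq2 1.42.0, RLE size factors, no filter, a replicate block, a joint fit and each library left out. The members, the signalling list and the markers were chosen with earlier results of these data known. All 9 members were named, together with the 4 largest called changes of the list at the last time of each line and in the line difference, and the 3 genes most like AREG, EGFR and ERBB3. Exon lengths came from GENCODE 29, which may not be the release the authors used. Limits for a count of 0 use 3 counts, and intervals are exact at 95%.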

Additional observations from a re-analysis of the deposited data

Results flagged for a closer look

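For 4 members the change at 24 h off drug differed between the lines, each by a test of the difference itself (edgeR, adjusted over all 15481 genes tested, where 49.4% were called). AREG changed by 12.13 more on the log2 scale in A375 than in 451Lu (adjusted p = 7.57e-07). ERRFI1 went the other way, with a difference of -4.35 (adjusted p = 1.56e-20). ERBB3 fell less in A375, with a difference of 1.05 (adjusted p = 2.60e-06), and HBEGF rose slightly more there, by 0.49 (adjusted p = 0.0283), a call lost with 1 library left out in 5 of 20 alternatives (adjusted p from 0.0524 to 0.108). The lines also differ in the drug withdrawn, which cannot be told apart from the line.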

How the results depend on the processing

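With 2 libraries per group, low genes set the limits: AREG, EREG and EGFR in 451Lu on drug had 6, 1 and 5 counts, so their fold changes follow single libraries, and DESeq2 gave no adjusted p for EGFR in 451Lu at 120 h against 72 h. RLE size factors moved the median of all genes by less than 0.1 on the log2 scale in every comparison. Over all alternatives other than leaving a library out, members that did not pass the test changed sign in 4 results. EGFR in A375 at 6 h was 0.000215 under RLE and 0.000385 under DESeq2, TGFA there was -0.00219 with no filter, EGFR in A375 at 48 h against 24 h was 0.00236 with the replicate block, and EGFR in 451Lu at 24 h was -0.00250 in the joint fit.

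For counts of calls, A375 at 48 h against 24 h had 985 genes higher and 1442 lower under DESeq2, against 2048 and 2270, and 0 members lower under DESeq2 and in the joint fit, against 1. In 451Lu at 72 h 3 members were higher under DESeq2, against 5. With 1 library left out, A375 at 48 h against 24 h had 1287 to 1898 genes higher and 0 to 1 members lower. In 451Lu, 3 to 5 members were higher at 72 h and 3 to 6 at 72 h against 24 h, and 1366 to 2286 genes were higher and 1485 to 2224 lower at 120 h against 72 h.

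Sign changes with 1 library left out, given as log2 ranges, touched these results. In A375 they were EGFR (-0.14 to 0.0633) and TGFA (-0.0268 to 0.0708) at 6 h, HBEGF at 24 h against 6 h (-0.22 to 0.0471) and EGFR at 48 h against 24 h (-0.12 to 0.0898). In 451Lu at 24 h they were AREG (-1.25 to 1.31), EGFR (-0.9998 to 0.71) and ERBB2 (-0.82 to 0.0138). AREG in 451Lu ran from -4.34 to 0.76 at 72 h and from -4.09 to 0.47 at 72 h against 24 h. At 120 h against 72 h they were ERBB2 (-0.39 to 0.39), ERBB3 (-0.0162 to 0.61) and ERRFI1 (-0.0507 to 0.11). Between lines on drug they were AREG (-0.91 to 1.46) and HBEGF (-0.0223 to 0.0527), and in the line difference EGFR (-1.65 to 0.057) and TGFA (-1.30 to 0.71). None of these results passed the test with all libraries.

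The sample titles carry a letter, B or C, which recurs at each time in each line, and the replicate numbers follow these letters. What the letters stand for is not stated, and no label ties them to a shared culture or batch. The libraries were therefore not treated as paired. Deviations of same-numbered libraries from their group means correlated at -0.20 to 0.05 in A375. In 451Lu they correlated at 0.19 to 0.28 among the 3 off-drug groups and at -0.05 to 0.00 between these and the on-drug group, a hint from the data that off-drug libraries with the same number deviate together. A replicate block moved no count of calls by more than 1.5 times, and of the members it changed the call of NRG1 in 451Lu at 72 h against 24 h, which passed with it (1.28, adjusted p = 0.0324).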
